A study of Mus musculus with 20 samples.

Results

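The middle villus fraction V2 was compared with the crypt fraction C1 of the mouse ileal epithelium, to find out which miRNAs differ between cells part of the way up the villus and cells of the proliferative crypt. The arrays were taken by the fraction in their labels, which gave 8 of the 20 arrays of the series, 4 of V2 and 4 of C1. All came from male C57BL/6J wild type mice aged 4 months, and the series description gives 4 mice. The ileum was shaken in chelating buffer and the cells that came off were collected in turn, so that V0 holds the villus tip, V1, V2 and V3 follow, and C1 holds the crypt. A fraction is therefore a successive harvest and not a sorted cell type, and in such bulk RNA fewer cells of a type and less RNA per cell cannot be told apart. Which arrays share a mouse was not stated, so p-values measure the spread between arrays. Replicate numbers only name the arrays.

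miRNAs are short RNAs that pair through their seed, bases 2 to 8 from the 5′ end, with sites in target mRNAs and lower the output of those mRNAs. In the small intestine, stem cells at the crypt base give rise to dividing progenitors, and their daughters leave the cell cycle and differentiate into absorptive and secretory cells as they move up the villus. miRNAs such as miR-192, miR-194 and miR-215 and the miR-200 family are known as abundant in this epithelium, while the MYC-driven miR-17 clusters are known for high levels in dividing cells.

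The mature sequence of miR-22, which had the lowest p between V2 and C1, is shown first, followed by the miRNAs that share the seed of miR-20b, by the pair miR-221 and miR-222, by 3 miRNAs with the seed of miR-195, and by miR-10a with miR-10b. let-7e, miR-7b and miR-29b are miRNAs that the study's text singles out. Sequences are from RefSeq (GRCm38.p6), where 55 of 61 names looked up were matched, and capitals mark the seed. Mature miR-22 lies at chr11:75463772-75463793 (plus strand), inside the host lncRNA gene Mir22hg, and mature miR-20b at chrX:52742159-52742181 (minus strand).
miR-22: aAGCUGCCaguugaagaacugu
miR-20b: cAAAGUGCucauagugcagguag
miR-17: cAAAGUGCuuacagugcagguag
miR-20a: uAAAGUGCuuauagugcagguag
miR-93: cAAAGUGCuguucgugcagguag
miR-106a: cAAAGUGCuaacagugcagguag
miR-106b: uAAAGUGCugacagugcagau
miR-221: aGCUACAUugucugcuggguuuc
miR-222: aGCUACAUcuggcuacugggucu
miR-195: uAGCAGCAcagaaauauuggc
miR-16: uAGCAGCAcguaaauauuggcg
miR-15b: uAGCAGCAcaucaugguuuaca
miR-10a: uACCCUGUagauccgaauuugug
miR-10b: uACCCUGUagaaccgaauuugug
let-7e: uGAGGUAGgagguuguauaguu
miR-7b: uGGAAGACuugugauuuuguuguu
miR-29b: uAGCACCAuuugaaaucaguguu

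The arrays differed in depth. The number of the 655 probes detected before normalization (detection p at most 0.01) was 344 to 471 (median 419.5) on V2 arrays and 285 to 372 (median 347) on C1 arrays. C1 replicate 4 stood apart, with 285 probes detected and a mean Spearman correlation across probes of 0.47 with the other C1 arrays, and V2 replicate 3, with 344 detected, correlated at a mean of 0.63 with the other V2 arrays. Only slide 2 of the 4 slides held both fractions, with V2 replicates 3 and 4 and C1 replicate 3 on it, so slide and fraction were largely tied. Of the markers of intestinal epithelium, miR-192, miR-194, miR-215, miR-200b and miR-200c were detected on all 8 arrays, and miR-141, miR-200a and miR-429 on all 4 V2 arrays and on 3 of 4 C1 arrays.

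Between V2 and C1, 2 of 310 tested miRNAs passed, and both were higher in V2. They were miR-22 and miR-378*, and 0 miRNAs were lower past the threshold. A probe was tested when it was detected on all 4 arrays of either fraction, and it passed at a limma adjusted p of at most 0.05 with at least a 2-fold difference, so that 0.645% of the tested probes passed. At an unadjusted limma p under 0.05 there were 20 higher (6.45%) and 42 lower (13.5%) probes in V2. The exact rank-sum test gave 48 probes under 0.05 and passed 0 after adjustment, since 4 against 4 arrays cannot give a two-sided p below 0.0286. With slide as a fixed block 7 probes passed, all higher in V2, namely miR-22, miR-378*, miR-20b, miR-183, miR-770-5p, miR-345-5p and miR-98. That block gives no weight to C1 replicate 4, alone on its slide. With slide as a random block 4 passed, all higher. Differences are on the log2 scale as V2 minus C1, and their median over the tested probes was near 0, with 155 above and 155 below it.

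**Figure D1:**
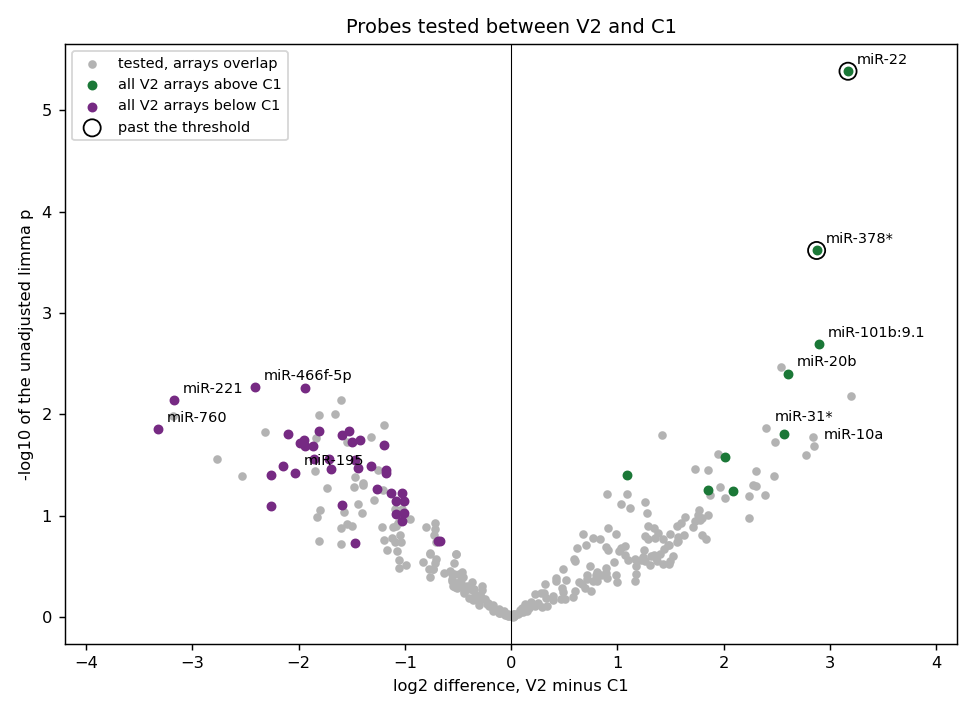
Each point is 1 of the 310 tested probes, with the log2 difference of V2 minus C1 on the x axis and the negative log10 of the unadjusted limma p on the y axis. miR-22 and miR-378* (circled) stand above the rest on the right, and the purple points of the 39 probes with all V2 arrays below all C1 arrays spread over the left side without passing.

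miR-22, a miRNA conserved among vertebrates, had log2 signals of 14.19, 14.37, 14.41 and 13.74 on the V2 arrays, against 11.47, 10.94, 10.79 and 10.83 on the C1 arrays. All V2 arrays lay above all C1 arrays, with no array out of place in either fraction and the probe detected on all 8. It averaged 14.18 ± 0.31 in V2 and 11.01 ± 0.31 in C1 (SD), a difference of 3.17 with an SE of 0.50 (limma adjusted p = 0.00128). With slide as a fixed block the difference was 3.67 (limma adjusted p = 0.00357), and on slide 2 alone it was 3.29, where the limma adjusted p was 0.653. Before normalization it was 4.36, with a limma adjusted p of 0.0995. Adjusted for how many probes each array detected, it was 2.69 (limma adjusted p = 0.00280). miR-22 still passed when any 1 of the 8 arrays was left out.

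miR-378* is the 5′ strand of a hairpin in an intron of Ppargc1b, the gene of the mitochondrial coactivator PGC-1β. It had log2 signals of 12.94, 13.40, 12.33 and 12.83 on the V2 arrays, against 10.23, 10.42, 9.45 and 9.90 on the C1 arrays. The fractions did not overlap, but only 2 of the 4 C1 arrays detected the probe. It entered the test through V2 alone, where it is high, so a difference was built into its choice. With a detection filter that ignored the fractions its limma adjusted p was 0.0546. The SD was 0.44 in V2 and 0.43 in C1, and the difference of 2.87 had an SE of 0.64 (limma adjusted p = 0.0375). This call was close to the threshold. With the tested probes held fixed, leaving out any 1 array ended it, although the difference stayed at 2.69 to 3.06, and the limma adjusted p without V2 replicate 3 was 0.0554, the lowest of these, and that without V2 replicate 1 was 0.129, the highest. With the detection filter set anew it passed without V2 replicate 3 (limma adjusted p = 0.0442) and without C1 replicate 1 (limma adjusted p = 0.0466), and not without any other array. With slide as a fixed block the difference was 4.16 (limma adjusted p = 0.00357), which is more than the gap between any V2 and any C1 array. On slide 2 alone the difference was 3.13. Adjusted for how many probes each array detected, it was 2.13 (limma adjusted p = 0.102).

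The other strands of these hairpins did not pass. miR-378, the 3′ strand, had 14.85, 14.68, 13.93 and 15.11 in V2 and 14.71, 14.73, 14.48 and 9.77 in C1. The fractions overlapped in all but C1 replicate 4, the array that stood apart, and the difference of 1.22 had a limma adjusted p of 0.468. miR-22* was not tested, being detected on 3 V2 arrays and 1 C1 array, and its means were 10.73 in V2 and 9.82 in C1.

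All V2 arrays lay above all C1 arrays for 9 of the 310 tested probes (2.9%), and all V2 arrays lay below all C1 arrays for 39 (12.6%). The detection filter bears on both counts. Among the 156 probes detected on all 8 arrays, 3 were above and 26 below, and the other 6 above were among 103 probes that entered through V2 alone, while 12 below were among 51 that entered through C1 alone. Both sets were picked by the position of every array, so the sign on slide 2 was fixed by that choice, for each of these probes too. The 9 higher probes had a median difference of 2.57 over all arrays and of 3.13 on slide 2. The 39 lower probes had a median of -1.52 over all arrays, of -0.72 on slide 2, of -0.95 with arrays centred on their median and of -0.06 with no normalization. C1 replicate 4 was the highest C1 array in 28 of the 39. Without normalization the median of all tested probes was 0.93, and 21 of the 39 stayed below 0. The lower values of the rest in V2 were relative to the other probes of an array.

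**Figure D2:**
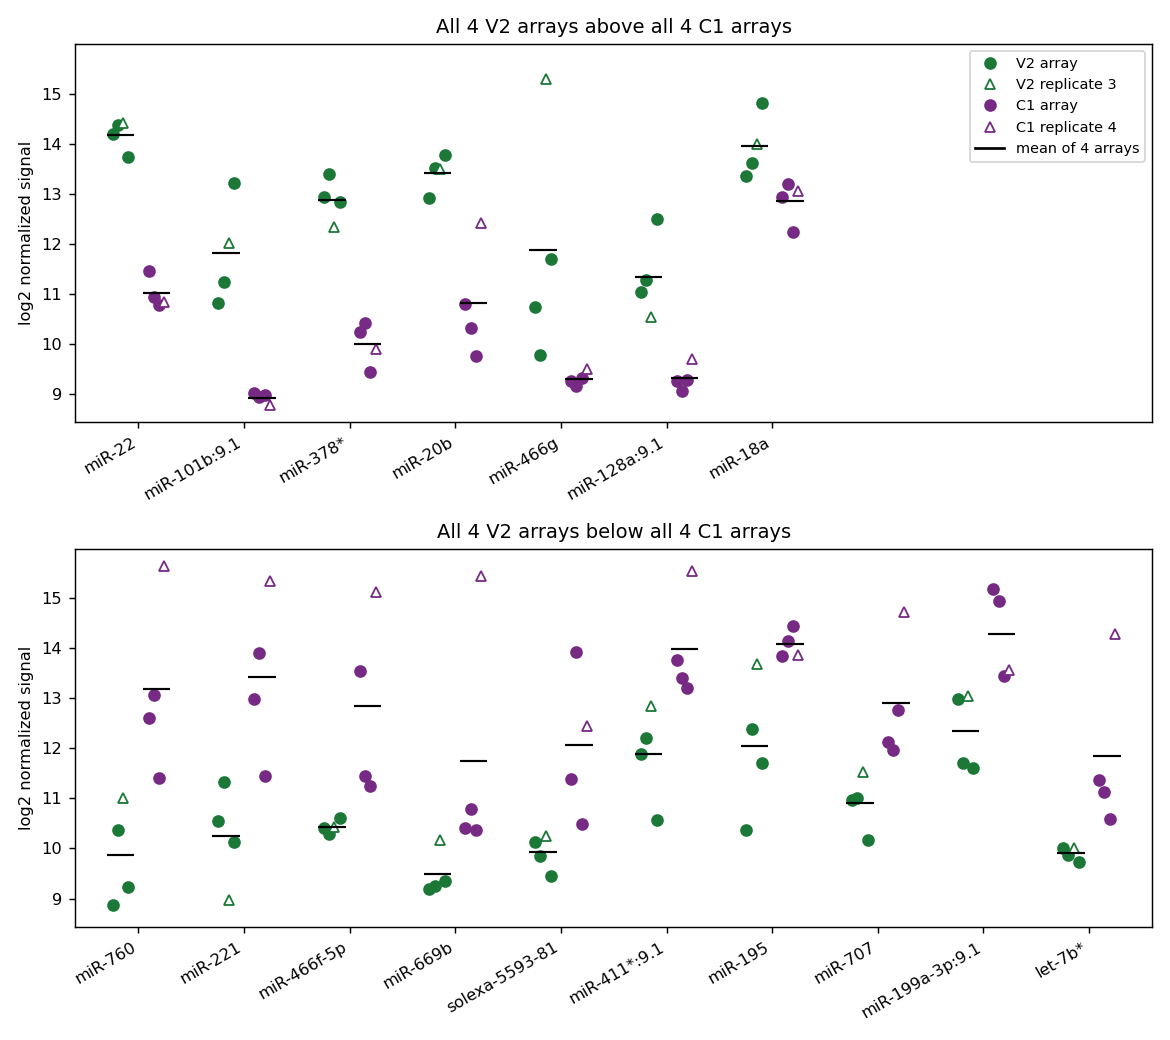
Log2 normalized signal of each array for the 7 named miRNAs with all V2 arrays above C1 (upper panel) and the 10 with all V2 arrays below C1 (lower panel), V2 in green left of C1 in purple, with lines at the means and open triangles for V2 replicate 3 and C1 replicate 4. miR-22 and miR-378* show tight groups, while in the lower panel the open C1 triangle is the highest C1 point for 7 of the 10.

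Among the higher miRNAs, miR-20b of the X-linked miR-106a cluster had 12.91, 13.52, 13.49 and 13.78 in V2, against 10.80, 10.32, 9.75 and 12.41 in C1. C1 replicate 4 came closest to V2. The difference was 2.60 with an SE of 0.79 and a limma adjusted p of 0.178. It passed with slide as a fixed block, where the difference was 5.01 (limma adjusted p = 0.00166). That block gives no weight to C1 replicate 4, alone on its slide, and draws on other fractions to link the slides. The 5.01 is more than the gap between any V2 and any C1 array. With slide as a random block miR-20b passed at 3.45 (limma adjusted p = 0.0293), while slide 2 alone gave 3.88. miR-18a, which the MYC-driven miR-17 cluster encodes, had 13.36 to 14.82 in V2, against 12.23 to 13.19 in C1. Its groups lay close together without overlapping, with a difference of 1.09 and a limma adjusted p of 0.213.

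3 probes were detected on all V2 arrays and on 0 C1 arrays among the named ones, so their folds are lower bounds, set against the lowest detected signal of each C1 array. They entered the test only through V2, where they are high, so a difference was built into their choice, and the 103 probes that did so had a median difference of 1.31. miR-101b:9.1, a member of the miR-101 family known for repressing the chromatin enzyme EZH2, had 10.82, 11.25, 12.01 and 13.21 in V2 and 8.77 to 9.01 in C1, and was at least 4.64-fold higher in V2 (limma adjusted p = 0.178). The suffix :9.1 is not explained in the sources, and that such a probe measures the miRNA in its name was assumed. The probe named miR-101b was not tested and had means of 11.11 in V2 and 10.15 in C1, a difference of 0.97. miR-466g, of a rodent family with near-identical relatives whose signals cannot be told apart here, had 10.74, 9.77, 15.30 and 11.70 in V2, where replicate 3 was far above the rest, and 9.15 to 9.50 in C1. It was at least 4.82-fold higher (limma adjusted p = 0.178), but the fitted difference of 2.57 was 1.43 without V2 replicate 3. miR-128a:9.1, named for the brain-enriched miR-128, had 11.04, 11.28, 10.53 and 12.49 in V2 and 9.07 to 9.69 in C1, at least 3.31-fold higher (limma adjusted p = 0.201). The other miR-128 probe differed the same way by 1.85 (limma adjusted p = 0.212), although V2 replicate 3 at 9.51 lay among the C1 arrays, at 9.49 to 10.42.

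2 further higher miRNAs had overlapping arrays, and both were detected on all 4 V2 arrays and on 2 C1 arrays. They too entered the test through V2 alone. miR-10a, encoded in a Hox cluster, had 14.12, 14.91, 14.71 and 15.30 in V2, against 9.30, 14.02, 14.71 and 9.59 in C1. The C1 arrays split into a pair near V2 and a pair near background, and the difference of 2.85 (SE 1.13, limma adjusted p = 0.178) shrank to 0.29 on slide 2. miR-31*, the minor strand of the miR-31 hairpin, which is known for its rise in inflamed and tumour epithelium, had 13.24, 13.74, 10.55 and 11.91 in V2 and 9.29, 9.50, 10.16 and 10.89 in C1. Its difference was 2.40 (SE 0.88, limma adjusted p = 0.178).

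Of the lower miRNAs, none passed. miR-221, known in human cells for repressing the cell cycle inhibitor p27, had 10.56, 11.34, 8.98 and 10.13 in V2, against 12.99, 13.91, 11.45 and 15.34 in C1. The nearest arrays, V2 replicate 2 and C1 replicate 3, were almost level. The probe was detected on all 4 C1 arrays and on 3 V2 arrays, so it entered the test through C1 alone. The difference was -3.17 (SE 1.05, limma adjusted p = 0.178), and -1.90 on slide 2. miR-222, with the same seed and encoded beside it, was not tested and had means of 10.01 in V2 and 9.69 in C1.

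miR-195, which represses cyclin genes, had 10.37, 12.40, 13.68 and 11.72 in V2 and 13.85, 14.15, 14.44 and 13.88 in C1. The C1 arrays were tight, C1 replicate 4 included, and the V2 arrays wide, with replicate 3 nearest to C1. The difference was -2.04 (SE 0.91, limma adjusted p = 0.212) and -1.74 on slide 2. Of its seed, miR-15b and miR-16 were also tested, with differences of 1.50 and 0.25, and none of these 3 passed. miR-15a, miR-322 and miR-497 were not tested, being detected on 2, 2 and 1 V2 arrays and on 1, 0 and 0 C1 arrays.

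A pair of probes carried the name of the stromal miRNA miR-199a-3p, and neither passed. miR-199a-3p:9.1 had 12.99, 11.72, 13.05 and 11.60 in V2 and 15.19, 14.95, 13.44 and 13.57 in C1, and its difference was -1.95 (limma adjusted p = 0.178). The joint probe of miR-199a-3p and miR-199b had 13.97, 13.91, 12.93 and 11.97 in V2 and 15.00, 15.24, 13.83 and 15.32 in C1, with an overlap at C1 replicate 3 and a difference of -1.65 (limma adjusted p = 0.178). The means of both probes were lower in V2, but single arrays disagreed, and C1 replicate 4 was the highest C1 array on the joint probe only. These miRNAs are known as markers of fibroblasts. In the V0 fraction both probes were near the C1 level, at 14.57 ± 0.58 for miR-199a-3p:9.1 and 15.07 ± 0.41 for the joint probe (SD).

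The remaining lower miRNAs leaned on C1 replicate 4 to different extents. miR-760 had 8.87, 10.36, 11.01 and 9.22 in V2 and 12.62, 13.08, 11.40 and 15.65 in C1, a difference of -3.32 (limma adjusted p = 0.178), and -1.28 on slide 2. For miR-669b C1 replicate 4 stood at 15.44 and the other C1 arrays at 10.36 to 10.80, against 9.20 to 10.17 in V2. This gave -2.26 (limma adjusted p = 0.213), and -1.03 without C1 replicate 4. The miR-669b probe was not detected on every array of both fractions, so it entered the test through a single fraction, and the filter bears on its difference. miR-466f-5p and let-7b* had the same shape, with C1 replicate 4 at 15.14 and 14.30 and differences of -2.41 and -1.94. Differences of miR-411*:9.1, miR-707 and a candidate named from sequencing were -2.10, -1.98 and -2.14, with limma adjusted p-values between 0.178 and 0.212.

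The paper chose the miRNAs that its text singles out from its array comparison of V0 with C1, not of V2 with C1. The C1 arrays are shared with that comparison, so the counts of these miRNAs are no independent evidence of direction. A miRNA that did not pass here was compared between other fractions than in the paper. By qPCR the paper reports a rise from crypt to villus for those it gives as higher. Of these miRNAs, 6 of 9 had differences above 0, with a median of 0.80 beside -0.04 over all 655 probes, and miR-22 alone passed. miR-7b, an endocrine and neuronal miRNA, had 13.91, 13.66, 10.94 and 12.91 in V2, against 13.19, 9.53, 9.43 and 10.07 in C1. V2 replicate 3 was the low V2 array and C1 replicate 1 the high C1 array, and the difference of 2.30 had a limma adjusted p of 0.246. let-7e, of the let-7 family known for repressing growth genes, had 13.15, 13.15, 10.27 and 13.08 in V2 and 13.29, 12.72, 9.60 and 10.82 in C1. The ranges overlapped almost fully, and the difference was 0.80 with a limma adjusted p of 0.605.

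miR-29b, known for targeting collagen mRNAs, was not tested, because V2 replicate 3 did not detect it. It had 13.95, 13.71, 8.92 and 13.44 in V2, against 9.06, 8.80, 11.35 and 8.94 in C1. Without V2 replicate 3 it would have been tested and passed, with a difference of 4.16 (limma adjusted p = 0.0430). As only 1 C1 array detected it, it would enter through V2 alone, where it is high, so a difference was built into that choice. With all arrays its limma adjusted p was 0.283 with no detection filter and 0.247 with a filter blind to fraction. On slide 2, which holds V2 replicate 3, the difference was -0.17. miR-486, an erythroid miRNA, was not tested either and averaged 10.64 in V2 and 10.37 in C1. miR-199b*, the older name of miR-199b-5p, averaged 9.66 in V2 and 10.29 in C1, and its difference of -0.63 (limma adjusted p = 0.556) changed sign under several settings.

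miR-335-5p and miR-302b, of the same selection, lay below all C1 arrays on every V2 array without passing. miR-335-5p, from an intron of Mest, had 10.92, 10.79, 10.02 and 10.92 in V2 and 12.23, 11.87, 11.47 and 11.87 in C1, a difference of -1.20 (limma adjusted p = 0.178). miR-302b, of an embryonic stem cell cluster, had 9.40, 9.42, 9.73 and 9.54 in V2 and 11.06, 11.04, 10.32 and 10.35 in C1, a difference of -1.17 (limma adjusted p = 0.212). Its neighbour miR-302c differed by -1.44 (limma adjusted p = 0.212), with C1 replicate 4 at 12.80. With no normalization the differences of miR-335-5p, miR-302b and miR-302c were 0.44, 0.12 and 0.16, so their lower level in V2 was relative to the other probes.

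Families were described by their counts, beside the even split of the tested probes. In the miR-200 family, which keeps epithelial identity, differences of 5 of 5 were above 0 with a median of 1.57, or 0.91 with arrays centred on their median, and 0 passed. Other lists lay wholly above 0 too, such as the clusters that hold miR-23a and miR-24 with 9 of 9, of which 6 were tested, and the miR-30 family with 5 of 5, of which 3 were tested. The mean over the miR-200 members was 13.68 to 15.25 on V2 arrays and 10.87 to 14.62 on C1 arrays, and C1 replicate 4 was the lowest. In the let-7 family 8 of 9 differences were above 0, with a median of 0.72, and 0 passed. miR-98 with 2.02 (limma adjusted p = 0.265) was the highest of them. It was detected on 4 V2 and 3 C1 arrays, so it entered the test through V2 alone. It passed with slide as a fixed block, which gives no weight to C1 replicate 4. C1 replicate 4 had the lowest C1 mean of the let-7 family too, at 12.20 against at most 15.21. That array was also the lowest C1 array for the miR-30 family (9.65), the miR-23a and miR-24 clusters (10.55) and the miR-17 clusters (11.49). The seed shared by miR-17, miR-20a, miR-20b, miR-93, miR-106a and miR-106b had 5 of 6 differences above 0, with miR-20b at 2.60 the highest and miR-106a at -0.30 the only one below 0. miR-19a and miR-19b of the same clusters were at -0.12 and -0.44.

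None of the enterocyte miRNAs passed, and the signals of miR-192 and miR-215 were near the top of the range of the listed miRNAs. Whether this limited their differences was not tested. miR-192, miR-194 and miR-215 averaged 15.37, 14.53 and 15.85 in V2 and 15.48, 14.45 and 15.08 in C1, with differences of -0.12, 0.08 and 0.77. Their median of 0.08 was -0.76 with arrays centred on their median. The secretory list (miR-375, miR-7a and miR-7b) had 3 of 3 above 0, with a median of 1.07, or 0.63 with arrays centred on their median. Its mean was lowest on C1 replicate 4, at 11.49. None of these 6 miRNAs had an unadjusted limma p under 0.05.

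Markers of other cell types were present in both fractions. miR-143 and miR-145, which mark smooth muscle, averaged 13.79 and 15.01 in V2 and 12.90 and 15.24 in C1. Of the 4 stromal probes 1 was above 0 and 3 below, with a median of -0.70, and their mean log2 signal per array was 11.36 to 12.22 in V2 and 11.59 to 12.79 in C1. Of the 6 leukocyte miRNAs 5 were above 0, with a median of 0.53 and miR-223 of myeloid cells at -1.20. Of the erythroid miRNAs, miR-451 was detected on 4 V2 and 4 C1 arrays, miR-486 on 3 and 3, and miR-144 on 0 of the 8. Of the neuronal miRNAs, miR-128 was detected on 3 V2 and 4 C1 arrays, miR-218 on 4 and 2, and miR-138 on 2 and 3. The neuronal miR-9 was detected on 2 V2 and 0 C1 arrays, miR-124 on 1 and 0, and miR-137 on 0 of the 8. Of 11 pluripotency probes 4 were tested, all with differences below 0, and the other 7 were not detected on all 4 arrays of either fraction. The part of other cell types in the differences was not tested.

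**Figure D3:**
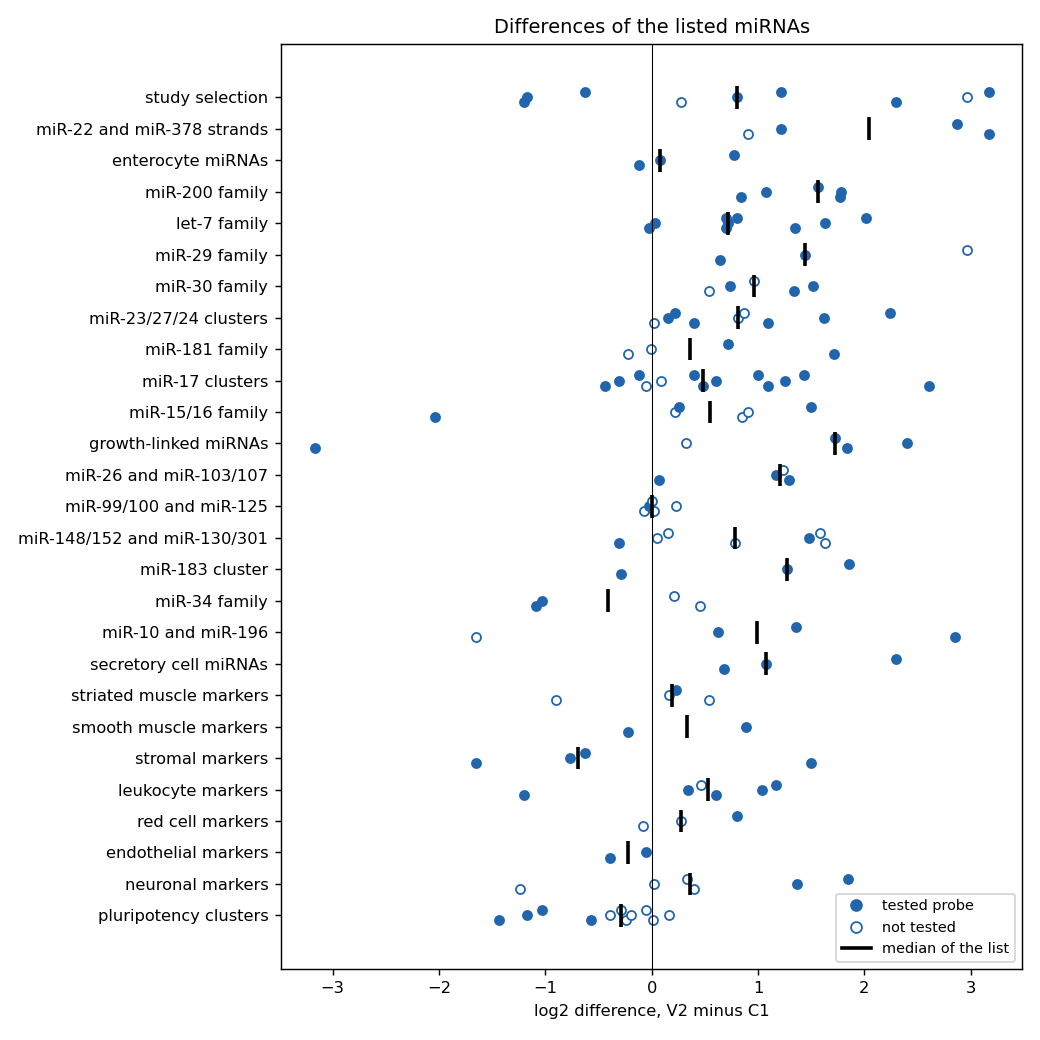
Log2 difference of V2 minus C1 (x axis) for the members of each list (rows), filled where the probe was tested and open where it was not, with a black bar at the median of the list. The miR-200 family lies wholly right of 0, and the miR-15/16 and growth-linked lists each hold 1 far left point, miR-195 at -2.04 and miR-221 at -3.17.

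V2 was also set beside its neighbours on the axis. Against V1, the next fraction towards the tip, 0 of 342 tested probes passed (0%) by limma, and 2 had an unadjusted limma p under 0.05. Against V3, towards the crypt, 0 of 302 passed (0%) by limma and 3 were under 0.05. The exact rank-sum test also passed 0 against each. With 4 against 4 arrays its two-sided p cannot fall below 0.0286, so after adjustment it had little room to pass a probe. With slide as a fixed block 5 passed against V3, namely miR-183, miR-130b*, miR-689, miR-20b and miR-98. Named after their values were seen, the probes under 0.05 without the block were miR-532-5p and miR-665 against V1, and miR-291a-3p, miR-30e* and a candidate named from sequencing against V3. These counts do not show that the fractions are alike.

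miR-22 averaged 13.45 ± 0.62 in V3, 14.18 ± 0.31 in the V2 arrays, 14.53 ± 0.02 in V1 and 13.73 ± 1.16 in V0 (SD), and V2 differed from V1 by -0.35 and from V3 by 0.73. miR-378* averaged 11.98 ± 1.53 in V3, 12.88 ± 0.44 in the V2 arrays, 13.06 ± 0.70 in V1 and 12.58 ± 0.86 in V0. All V2 arrays of miR-22, at most 14.41, lay below all V1 arrays, at least 14.51, while its V2 and V3 arrays overlapped. Of the 342 probes tested against V1, 7 had an exact rank-sum p under 0.05, which needs such a separation in either direction. The villus fractions of miR-378* overlapped one another. miR-221 averaged 11.79 ± 2.17 in V3, 10.25 ± 0.98 in the V2 arrays, 10.52 ± 1.10 in V1 and 12.35 ± 1.78 in V0, so V2 held its lowest mean by less than the spread. miR-195 in V0, at 13.81 ± 0.83, was close to the C1 mean of 14.08, and V2 and V1 were at 12.04 and 12.06. miR-486 was at most 12.34 on V2 arrays and at least 12.83 on V0 arrays, and miR-199b* was at most 10.02 on V2 arrays and at least 12.19 on V0 arrays, differences that were not tested. The share of all probes with V2 and V0 set apart in this way was not counted.

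**Figure D4:**
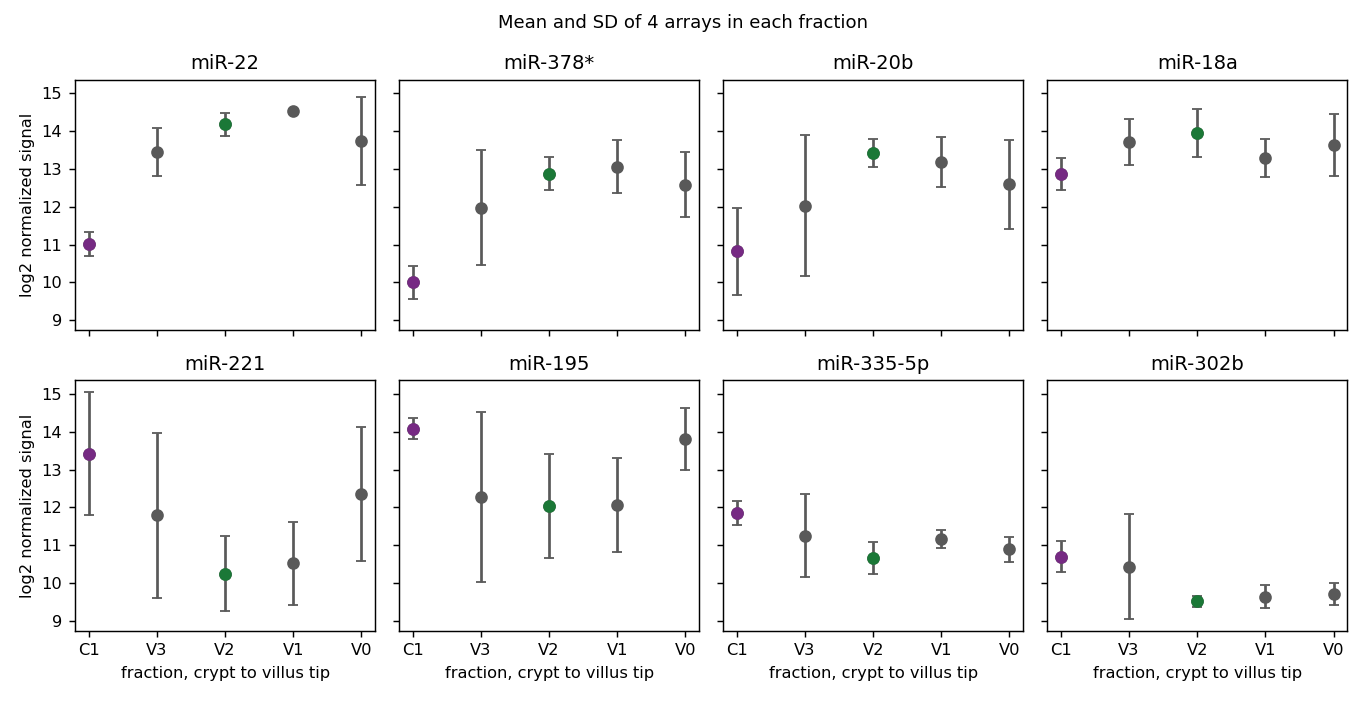
Log2 normalized signal (y axis) of 8 miRNAs in the 5 fractions from C1 to V0 (x axis), as the mean with bars of 1 SD over 4 arrays, with V2 in green and C1 in purple. miR-22 stands at 11.01 in C1 and at 13.45 or more in each villus fraction, while V3 has wide bars for most of the others.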

How the data were processed

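RNA of each fraction was hybridised to Illumina bead arrays. The authors summarised the beads of each probe as an average signal intensity in GenomeStudio, quantile-normalized the arrays as 1 set with no background subtracted, and deposited this intensity before and after normalization. The deposited detection p-value of each probe and array was used to filter probes.

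Log2 of the normalized intensity was fitted here by lmFit and eBayes of limma 3.58.1 (R 4.3.3), giving each fraction of the 20 arrays its own mean, with Benjamini-Hochberg adjustment over the tested probes. The fit was checked on simulated data. Named were miRNAs past the threshold, up to 10 non-overlapping probes on each side with an unadjusted p under 0.05, the miRNAs of the study's text, and up to 2 members of each list with an unadjusted p under 0.05. Members and lists were chosen with earlier results of these data known. Alternatives changed the normalization, background, filter, slide, covariates, spread model, test, minimum fold and arrays. The number of arrays limits the precision. Older star names were kept as the array gives them.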

Additional observations from a re-analysis of the deposited data

Results flagged for a closer look

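Within the 4 arrays of a fraction, 8 of 62 groups examined held an array far from the other 3 by Dixon's criterion, which chance meets in about 1 in 20 groups. V2 replicate 3 was low for let-7e at 10.27, for miR-29b at 8.92 and for miR-335-5p at 10.02, and high for miR-669b at 10.17. C1 replicate 4 was high for miR-669b at 15.44 and low for miR-378 at 9.77. C1 replicate 1 was high for miR-7b at 13.19, and C1 replicate 3 was high for miR-29b at 11.35. All values are log2 normalized signal.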

How the results depend on the processing

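No paired analysis was possible because the mouse behind each array is not in the labels. The 2 miRNAs past the threshold for V2 against C1, 2 higher and 0 lower, became 0 with no normalization and by the exact rank-sum test. They were also 0 on slide 2 alone, which has 2 V2 arrays and 1 C1 array and so says nothing about stability, and there the differences of miR-22 and miR-378* were 3.29 and 3.13. There was 1, miR-22, with no detection filter, with detection required on all 8 arrays, with a filter blind to fraction, with median-centred arrays and with a trend in eBayes, always higher. Slide as a random block gave 4 and as a fixed block 7, all higher, and the fixed block adds miR-20b, miR-183, miR-770-5p, miR-345-5p and miR-98 but gives no weight to C1 replicate 4, alone on its slide. Leaving out 1 array gave 1 to 4 (1 to 3 higher and 0 to 1 lower), with 4 without C1 replicate 1 and 3 without V2 replicate 3.

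2 settings were chosen after seeing the data. Leaving out the 3 arrays with the lowest rank correlation with their own fraction (V2 replicate 3, C1 replicate 4 and V3 replicate 4) gave 16 (6 higher, 10 lower), or 13 with 10 lower among the same probes, and this choice of arrays itself narrows the spread. Slide as a block together with a covariate for the probes each array detected gave 8 (6 higher, 2 lower). Against V3, 5 passed with slide as a fixed block and 1 with that covariate added. The count against V1 stayed at 0 in every setting. miR-22 passed in 31 of 34 settings and miR-378* in 11 of 33.

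Some directions turned, and the cause was not tested. let-7e was -0.17 and miR-378 -0.26 with that covariate alone, and miR-486 was -0.14 without C1 replicate 1, within -0.14 to 0.84 over the arrays left out. miR-199b* was 0.56 with no normalization, 0.0039 with the slide block, 0.49 on slide 2, 0.0036 with the covariate and 1.08 with both. With no normalization miR-302b was 0.12, miR-335-5p 0.44 and miR-302c 0.16.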
